A study of Mus musculus with 4 samples.

Results

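The sodium potassium ATPase, or sodium pump, was examined in the testis of FVB mice through 4 subunit genes in the deposited expression table of 24420 symbols. These were the alpha subunit gene Atp1a4, the sperm form, and the 3 beta subunit genes Atp1b1, Atp1b2 and Atp1b3, chosen by symbol and not by their values. RNA of freshly isolated testis was sequenced in 4 libraries, 2 from mice labelled as mutant for Lrrc8a (MUT) and 2 from wild-type mice (WT), all of the same strain. The product of Lrrc8a is part of an anion channel that opens on swelling and lets chloride and osmolytes leave the cell. The kind of mutation, the age of the mice, and whether each library comes from its own mouse are not stated in the labels, so a p-value reflects library-to-library spread, and this spread may be only technical.

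The sodium pump is a membrane enzyme that uses ATP to move sodium out of the cell and potassium in, and the gradients it makes drive other transporters and set the water balance of the cell. The alpha subunit binds the ions and splits ATP, and the beta subunit is a glycoprotein that the alpha subunit needs to fold and to reach the membrane. The alpha form Atp1a4 is found in male germ cells and sperm, and sperm of mice without it swim poorly. Among the beta subunits, Atp1b1 is widespread, Atp1b2 was first described as an adhesion molecule on glia, and Atp1b3 is found in many tissues.

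Between 40426400 (MUT 2) and 68192776 (WT 1) reads per library were assigned to genes. The unit throughout is CPM, the read count scaled to library size. Although the labels name germ cells as the cell type, somatic markers were present beside those of germ cells. The 14 spermatid markers summed to 22255 and 21322 CPM in the MUT libraries and to 24209 and 21977 CPM in the WT libraries. The 12 Sertoli markers summed to between 1052 and 1155 CPM and the 9 Leydig markers to between 1022 and 1247 CPM over the 4 libraries, so the libraries are described as testis tissue. In such bulk samples, fewer cells of a type and less RNA per cell cannot be told apart. Lrrc8a itself was at 13.49 and 15.86 CPM in the MUT libraries and at 18.21 and 17.15 CPM in the WT libraries, and its difference did not pass the test (limma adjusted p = 0.218).

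The promoters of Atp1a4 and Atp1b3, the most abundant of the 4 genes in these libraries, are shown beside that of Atp1b1, a beta subunit gene at a much lower level. Each is the 250 bases before the start of the gene on the gene's strand (minus for all 3), from RefSeq on build GRCm38.p6. Of the 4 subunit genes, 3 matched the promoter table, and Atp1b3 has another start there whose promoter is not shown. Capitals mark matches, on either strand, to the cAMP response element TGACGTCA, its first 5 letters TGACG, the TATA box TATAAA, the GC box GGGCGG or the CCAAT box CCAAT. The TGACG letters lie within the full element and the other motifs are searched independently.
Atp1a4 promoter, chr1:172258425-172258674: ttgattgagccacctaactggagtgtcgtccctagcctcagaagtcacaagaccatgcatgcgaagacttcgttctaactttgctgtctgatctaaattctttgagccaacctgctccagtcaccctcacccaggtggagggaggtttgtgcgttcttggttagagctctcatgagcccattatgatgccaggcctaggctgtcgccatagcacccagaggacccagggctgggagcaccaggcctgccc
Atp1b3 promoter, chr9:96364432-96364681: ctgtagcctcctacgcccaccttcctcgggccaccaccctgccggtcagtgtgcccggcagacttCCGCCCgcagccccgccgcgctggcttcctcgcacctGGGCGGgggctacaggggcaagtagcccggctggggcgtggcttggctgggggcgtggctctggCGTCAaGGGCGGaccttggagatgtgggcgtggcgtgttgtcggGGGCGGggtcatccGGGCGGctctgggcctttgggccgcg
Atp1b1 promoter, chr1:164458356-164458605: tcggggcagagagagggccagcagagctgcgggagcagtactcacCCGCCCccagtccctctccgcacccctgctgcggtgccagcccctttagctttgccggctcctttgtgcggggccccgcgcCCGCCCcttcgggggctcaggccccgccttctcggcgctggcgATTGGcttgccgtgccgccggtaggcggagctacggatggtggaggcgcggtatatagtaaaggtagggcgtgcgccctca
The Atp1a4 window held none of these letters and had a GC content of 54.8%, against a median of 52.4% over the same 250 bases of all 32851 promoters. The Atp1b3 window shown held 5 GC boxes and 1 TGACG match at 73.6% GC, while that of its other start held none of these letters at 76.8% GC. The Atp1b1 window held 2 GC boxes and 1 CCAAT box at 70.4% GC. A GC box was found in 32.7%, a CCAAT box in 33.8%, TGACG in 17.8%, a TATA box in 12.4% and the full cAMP response element in 1.55% of these windows. The windows shown differ in base composition and in these letters, which is a description of sequence only.

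Testis RNA carried the subunits at very different levels, and the germ cell form was the highest of the 4 in every library. Levels of different genes were compared per kb of the longest coding transcript in GENCODE. Atp1a4 was at 235 ± 12.1 CPM per kb in MUT and 249 ± 22.8 CPM per kb in WT testis (SD, n = 2 each). Atp1b3 came next, at 179 ± 2.75 CPM per kb in MUT and 196 ± 15.6 CPM per kb in WT testis. These were followed by Atp1b2, at 13.3 ± 1.16 CPM per kb in MUT and 13.0 ± 0.583 CPM per kb in WT testis, and by Atp1b1, at 9.43 ± 0.727 CPM per kb in MUT and 8.18 ± 0.787 CPM per kb in WT testis. No neighbours in this order overlapped over the 4 libraries, so the order was the same in each. Per kb, Atp1a4 exceeded the sum of the beta genes 1.19 and 1.14 times in the MUT libraries and 1.13 and 1.16 times in the WT libraries, which overlapped.

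**Figure D1:**
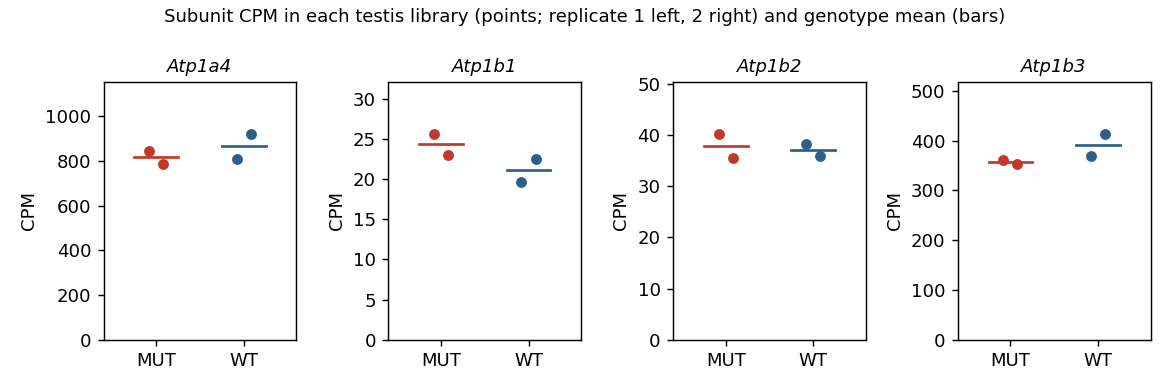
CPM of each of the 4 subunit genes (y axis, starting at 0, one panel per gene) in the MUT (red) and WT (blue) testis libraries, with points for single libraries and bars for the means of 2. Atp1a4 lies between 785 and 921 CPM and Atp1b1 between 19.7 and 25.7 CPM, and the genotypes lie apart in the panels of Atp1b1 and Atp1b3.

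None of the subunits passed the test between MUT and WT testis. By limma on log2(CPM + 0.5) over 15364 tested genes, 0 of the 4 had an adjusted p under 0.05, against 0.749% of all tested genes, and 1 of the 4, Atp1b1, had an unadjusted p under 0.05, against 14.7% of all tested genes. On the reads recovered from the CPM, edgeR and DESeq2 also called 0 of the 4, with 2 and 0 at an unadjusted p under 0.05. All 4 passed the filter on low values. Their log2 fold changes, MUT minus WT, ran between -0.13 and 0.20 with a median of -0.03, while those of all tested genes had a median of -0.0016 and 90% of them lay between -0.24 and 0.27. For 2 of the 4 the MUT and WT libraries did not overlap, with Atp1b1 higher and Atp1b3 lower in MUT. This was so for 45.6% of all tested genes, 23% higher and 22.6% lower in MUT.

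**Figure D2:**
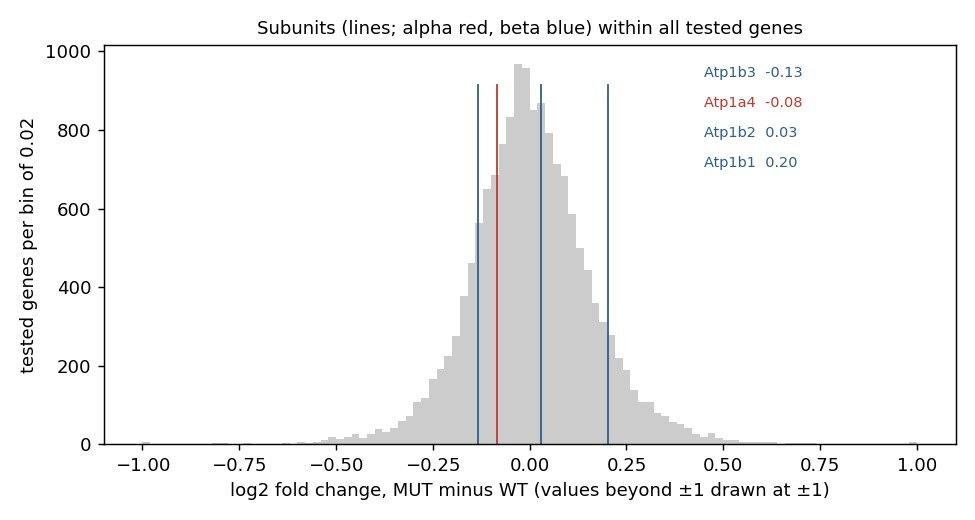
Histogram of the log2 fold change, MUT minus WT, of all 15364 tested genes (x axis; y axis, genes per bin), with a line for the alpha (red) and each beta (blue) subunit gene. The 4 lines, from -0.13 for Atp1b3 to 0.20 for Atp1b1, fall within the central part of the histogram.

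Atp1a4, which encodes the ion-binding and ATP-splitting part of the sperm pump, did not differ beyond the spread of its libraries. It had 844.7 and 785.5 CPM in the MUT libraries, against 808.8 and 920.7 CPM in the WT libraries. The highest and the lowest value were WT 2 and MUT 2, and the genotypes overlapped. Its log2 fold change was -0.08 (SE 0.0666, 95% interval -0.22 to 0.06, limma adjusted p = 0.598), so that the interval spans 0.857 to 1.04 times the WT level. Its sign rested on WT 2, with a log2 fold change of 0.01 without that library, and its size on the scaling, with -0.00089 for quantile-normalized values.

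The beta subunits, which carry the alpha subunit to the membrane, showed the highest and the lowest fold change of the 4 genes. Atp1b3 had 360.5 and 352.8 CPM in the MUT libraries, against 369.7 and 413.6 CPM in the WT libraries. Both MUT libraries lay below both WT libraries, and MUT 1 and WT 1 were close (log2 fold change -0.13, SE 0.0648, 95% interval -0.27 to 0.003, limma adjusted p = 0.351). WT 2 carried much of this difference, which was -0.05 without it, -0.21 without WT 1 and -0.08 for quantile-normalized values. Atp1b1 had 25.7 and 23.0 CPM in the MUT libraries, against 19.7 and 22.5 CPM in the WT libraries. Here the MUT libraries were the higher ones, with MUT 2 near WT 2. Its log2 fold change of 0.20 (SE 0.0942, 95% interval 0.005 to 0.40, limma unadjusted p = 0.0448, adjusted p = 0.325) was 0.11 without WT 1 and 0.13 without MUT 1. Atp1b2, the glial adhesion molecule, had 40.2 and 35.6 CPM in the MUT libraries, against 38.3 and 35.9 CPM in the WT libraries. These overlapped fully, the WT values lying between the MUT values (log2 fold change 0.03, 95% interval -0.15 to 0.20, limma adjusted p = 0.910), and the sign turned to -0.06 without MUT 1 and to -0.02 without WT 2.

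**Figure D3:**
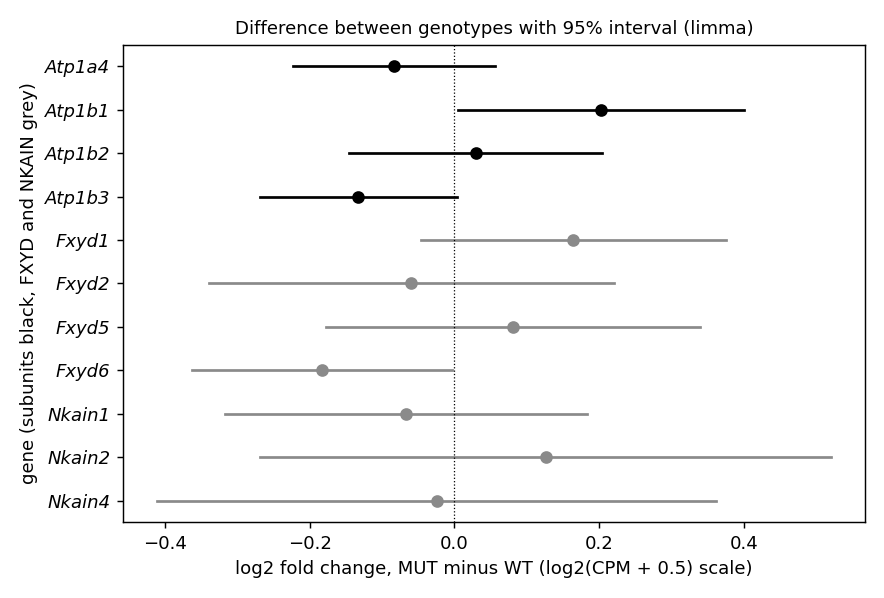
Log2 fold change, MUT minus WT (x axis, log2(CPM + 0.5) scale), with its 95% interval from limma, for the 4 subunit genes (black) and the tested FXYD and NKAIN genes (grey). The intervals of all but Atp1b1 and Fxyd6 cross 0, and neither of these passed the test over all genes.

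The makeup of the beta subunit transcripts differed by at most a few percentage points between genotypes. Per kb, Atp1b3 made up 88.2% and 89.2% of the beta transcripts in the MUT libraries, against 89.8% and 90.7% in the WT libraries. Atp1b1 made up 4.86% and 4.50% in the MUT libraries, against 3.69% and 3.82% in the WT libraries. The MUT share of Atp1b3 was thus the lower and that of Atp1b1 the higher, without overlap, while Atp1b2 made up 6.91% and 6.31% in the MUT libraries, against 6.52% and 5.52% in the WT libraries, which overlapped. The ratio of Atp1b3 to Atp1b1 per kb was 19.0 ± 1.17 in MUT and 24.0 ± 0.406 in WT testis (SD, n = 2 each; two-sided exact permutation p = 0.333). The ratio of Atp1a4 to Atp1b3 per kb was 1.31 ± 0.0474 in MUT and 1.27 ± 0.0155 in WT testis (two-sided exact permutation p = 0.333). With 2 libraries against 2, 0.333 is the smallest p that this test can give, so these ratios can be described but not called.

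**Figure D4:**
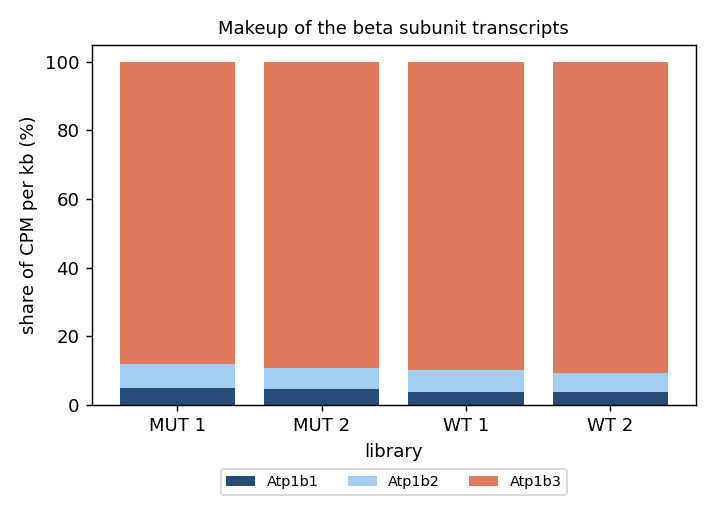
Share of each subunit gene (y axis, percent of the summed CPM per kb) among the beta transcripts of each library. Atp1b3 takes between 88.2% and 90.7%, with the lower shares in the MUT libraries.

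Some Leydig, Sertoli, spermatogonia and macrophage markers were called between the genotypes in the same libraries, and the other marker lists had none called. Of all tested genes 0.749% were called, and the sums below were not tested. The 9 Leydig markers summed to 1196 and 1247 CPM in MUT, against 1042 and 1022 CPM in WT, and 2 of them (Cyp17a1 and Prlr) were called higher. Of the 12 Sertoli markers, Gja1 was called higher and Ptgds lower, with sums of 1132 and 1155 CPM in MUT against 1092 and 1052 CPM in WT. The 6 peritubular myoid markers summed to 369 and 390 CPM in MUT, against 420 and 406 CPM in WT, with none called. The 10 spermatocyte markers summed to 6234 and 6144 CPM in MUT, against 6423 and 6365 CPM in WT, with none called. Both MUT sums lay below the WT sums, as they did for the myoid markers. The most abundant spermatocyte markers were Ldhc and Hspa2. Ldhc had 2743 and 2666 CPM in MUT, against 2865 and 2836 CPM in WT. Hspa2 had 1554 and 1548 CPM in MUT, against 1668 and 1572 CPM in WT. Of the 10 spermatocyte markers, 4 were lower and 2 (Sycp1 and Tex101) higher in MUT without overlap. The sums of the spermatid list, given above, overlapped and none of its 14 genes was called. Of these 14, 10 had a negative log2 fold change, and 6 were lower and 1 higher in MUT without overlap. Without overlap, 6 Leydig markers were higher and 0 lower, 8 Sertoli markers higher and 1 lower, and 0 myoid markers higher and 4 lower. These counts were 5 and 2 for spermatogonia and 2 and 1 for macrophage markers. They were 1 and 1 for endothelial and 2 and 1 for neural and glial markers. Over all tested genes, 23% were higher and 22.6% lower without overlap, and 49.6% had a positive log2 fold change. Of the 9 tested spermatogonia markers, Kit was called higher, with sums of 135 and 130 CPM in MUT against 123 and 136 CPM in WT. Of the 7 macrophage markers, Cd74 was called lower, although the list summed to 90.0 and 90.8 CPM in MUT against 84.6 and 84.7 CPM in WT. None of the 5 endothelial markers, the 1 tested erythroid marker (Alas2) and the 1 tested epididymis marker was called. Of the 6 erythroid markers, 4, all globin genes, had no reads in any library, and why was not tested. The 4 tested of 7 neural and glial markers had none called, and the list summed to 55.6 and 52.8 CPM in MUT against 48.9 and 49.5 CPM in WT. Most of this sum was Tubb3, at 36.0 and 34.1 CPM in MUT against 31.6 and 32.6 CPM in WT. The part of these cell types in the subunit values was not tested.

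All 4 genes lie on the minus strand. On GRCm38, Atp1a4 spans chromosome 1 from 172223513 to 172258414 in 23 exons, next to the coding gene Casq1. Atp1b1 is on the same chromosome (164437109 to 164458355, 6 exons), Atp1b3 on chromosome 9 (96332655 to 96364442, 7 exons) and Atp1b2 on chromosome 11 (69599736 to 69605942, 7 exons), between Trp53 and Shbg. The exons of Atp1b1 share 575 bp with those of Nme7 on the opposite strand. Nme7 had 64.0 and 68.6 CPM in the MUT libraries, against 74.7 and 78.7 CPM in the WT libraries (limma adjusted p = 0.181). Its MUT libraries lay below its WT libraries, while for Atp1b1 they lay above. If the counting ignored strand, reads from such shared stretches cannot be told apart, and no source used here says whether it did. The exons of Atp1a4, Atp1b2 and Atp1b3 share no base with those of another annotated gene. Pump alpha subunits are alike in coding sequence, and how the counting treated reads that match several genes was not tested.

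A few percent of the tested genes followed much the same course over the 4 libraries as each subunit. The tested genes most like Atp1a4 in log2(CPM + 0.5) were Spata31d1b, Ddx58 and Lactb, each with a Pearson correlation of 0.9998 or more over the 4 libraries. Those most like Atp1b3 were Cst8, Gfm2 and Ppp4r1. For Atp1b1 they were Zbtb41, Lrrc20 and Vps37a, and for Atp1b2 B4galt7, Otud6a and Nek2. A correlation of 0.95 or more was reached by 287 (Atp1b2) to 624 (Atp1b3) tested genes, or 1.87% to 4.06% of them. With 4 points that share their libraries and depth, such a likeness separates few genes and is given as a description only. The share of unrelated genes that would reach it over 4 points was not tested.

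FXYD proteins are small membrane proteins that bind the pump and tune its affinity for ions. Of the 7 FXYD genes, 4 were tested and none was called, with a median log2 fold change of 0.01. Fxyd6 had 25.4 and 23.6 CPM in the MUT libraries, against 28.8 and 26.9 CPM in the WT libraries, all MUT values lying below the WT values (log2 fold change -0.18, SE 0.0858, limma adjusted p = 0.331). Fxyd1, or phospholemman, the regulator known from heart and muscle, had 21.0 and 24.5 CPM in the MUT libraries, against 21.9 and 18.6 CPM in the WT libraries, which overlapped (log2 fold change 0.16, adjusted p = 0.470). Fxyd5 (MUT 6.69 CPM, WT 6.29 CPM) and Fxyd2, the gamma subunit of the kidney pump (4.61 and 4.85 CPM), also overlapped. Fxyd3, Fxyd4 and Fxyd7 did not pass the filter and stayed below 0.23 CPM in every library. The NKAIN genes encode proteins that interact with the pump, and Nkain1, Nkain2 and Nkain4 were tested with none called (log2 fold changes -0.07, 0.13 and -0.02). Atp1b4, a beta-like gene that in mammals is not a pump subunit, had a single read in MUT 1 and none elsewhere.

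Related pumps and the transporters that use the sodium gradient were counted in the same way. Of 53 tested genes in 8 such lists, FXYD and NKAIN included, 1 was called, the copper pump gene Atp7a, against 0.749% of all tested genes, so nothing is read from this count. It rose to 16.2 and 15.0 CPM in the MUT libraries, against 10.8 and 11.2 CPM in the WT libraries (log2 fold change 0.48, SE 0.0979, limma adjusted p = 0.0262). Its call was lost without MUT 1 (adjusted p = 0.116) and without WT 1 (0.0512), and also with untrended variances (0.176), quantile-normalized values (0.0546) and no filter on low values (0.206). The log2 fold change itself stayed between 0.43 and 0.48 in these 5 fits. It was the only called gene among the 14 tested calcium and other P-type pumps, whose median log2 fold change was 0.003. Of 8 sodium-proton exchangers, which trade sodium for protons, none was called and the median was -0.04. The smallest p among them belonged to Slc9a9 (log2 fold change 0.23, limma adjusted p = 0.518), whose MUT libraries lay higher, and then to Slc9a8, which had 63.3 and 69.0 CPM in the MUT libraries, against 69.6 and 72.1 CPM in the WT libraries (log2 fold change -0.10, adjusted p = 0.555). Of 5 sodium-calcium exchangers none was called (median -0.03), with Slc8a1 at a log2 fold change of 0.17 and Slc24a1 at -0.16, both overlapping. Of 7 sodium channel genes none was called (median 0.03), and Scn10a (-0.23, limma adjusted p = 0.240) and Scn11a (0.39, adjusted p = 0.253) had the smallest p. The H,K-ATPase genes Atp4a and Atp12a, which encode the nearest relatives of the pump's alpha subunit, were at most 1.6 CPM in every library and were not called (log2 fold changes -0.18 and 0.29). Among 10 signalling and regulatory genes tied to the pump none was called (median 0.002). Sik1, a salt-inducible kinase, had 18.8 and 18.6 CPM in the MUT libraries, against 23.1 and 25.3 CPM in the WT libraries, with a log2 fold change of -0.36 (SE 0.0888, limma adjusted p = 0.0624). It passed the test without WT 1 (adjusted p = 0.0379). Cav1, which encodes the coat protein of caveolae, had a log2 fold change of 0.17 (adjusted p = 0.519).

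**Figure D5:**
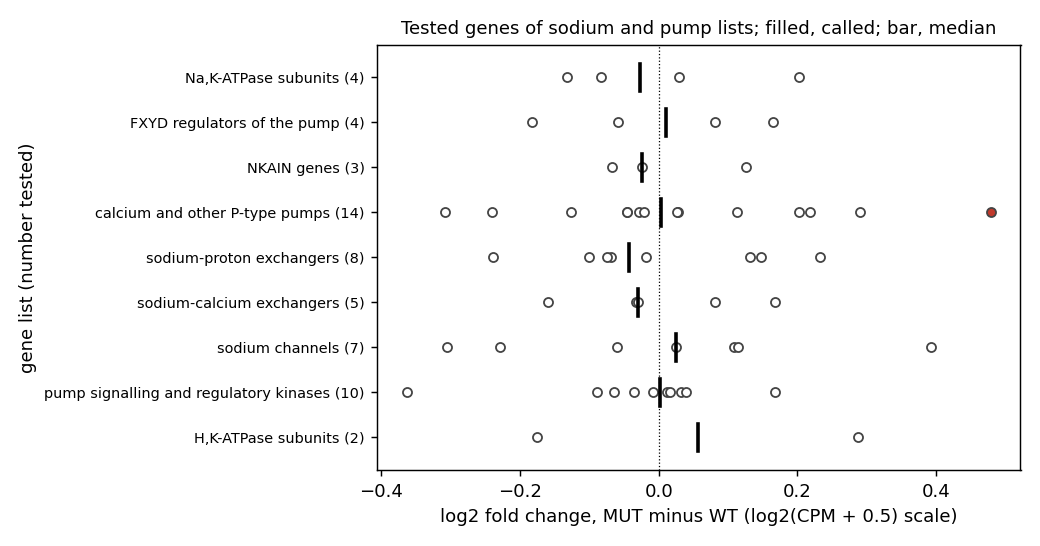
Log2 fold change, MUT minus WT (x axis), of each tested gene (circles) in the subunit list and the 8 related lists, with the number tested in parentheses, filled circles for genes with an adjusted p under 0.05 and bars for medians. Atp7a, at 0.48, is the only filled circle, and the list medians lie between -0.04 and 0.06.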

How the data were processed

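The authors deposited one table of CPM per gene symbol and library. Build mm10, edgeR 3.8.6, HTSeq 0.6.0 and TopHat2 2.0.10 are named, per the submitters' processing notes, which do not say what each did or how strand was treated. Per the labels' protocols, libraries were made with the TruSeq stranded mRNA kit. In each library 100% of the CPM lay within 0.001 of a whole multiple of the smallest value, which gave back reads, 40426400 (MUT 2) to 68192776 (WT 1) per library. Symbols with at least 1 CPM in at least 2 libraries were tested by limma 3.58.1 (mean-variance trend, R 4.3.3) on log2(CPM + 0.5), two-sided. P-values were adjusted by Benjamini and Hochberg over every tested symbol, and 0.05 was the threshold. Fold changes on this scale understate the change of low genes. Scripts were tested on simulated reads. Alternatives on the recovered reads were DESeq2 1.42.0 and the quasi-likelihood test of edgeR 4.0.16. Transcript lengths and positions are from GENCODE vM21 (GRCm38), which matched all 4 subunits. Libraries of a genotype differed by more than sampling noise (chi-square per degree of freedom 5.67 for MUT and 11.2 for WT). Pairs across genotypes gave 11.5 to 16.0, so the WT libraries differed nearly as much as the closest such pair, MUT 2 with WT 1. These values were not adjusted for depth. The subunits and lists were chosen with earlier results of these data known. The named genes were all subunits, all tested FXYD and NKAIN genes, and in each other list the called members or else the 2 with the smallest p. The likest genes were the 3 with the highest correlation per subunit, without predicted, Rik or Gm names. Some genes of the lists are not reported here.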

Additional observations from a re-analysis of the deposited data

How the results depend on the processing

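No subunit was called under any of 16 other settings, where the lowest adjusted p was 0.104 (Atp1b3 without WT 1). The fits that left out no library kept each subunit's sign, but quantile normalization took Atp1a4 from -0.08 to -0.00089 and Atp1b3 from -0.13 to -0.079, and plain totals, which moved the median of all genes to 0.026, took Atp1b2 from 0.03 to 0.058. With a library left out, where the lone library is assumed to vary like the others, log2 fold changes ran from -0.18 to 0.010 for Atp1a4, 0.11 to 0.30 for Atp1b1, -0.058 to 0.12 for Atp1b2 and -0.21 to -0.05 for Atp1b3. The sign also turned for Fxyd2 (-0.20 to 0.082), Fxyd5 (-0.023 to 0.19), Nkain1 (-0.21 to 0.074), Nkain2 (-0.056 to 0.31), Nkain4 (-0.24 to 0.19), Slc8a1 (-0.016 to 0.35) and Slc24a1 (-0.33 to 0.015).

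Over all genes, 74 were called higher and 41 lower in MUT (64.3% higher). The counts were 5 and 2 with untrended variances, 35 and 18 with quantile-normalized values, 7 and 4 with no filter, 127 and 35 (78.4% higher) with plain totals, 113 and 37 (75.3% higher) with totals without the 100 most abundant symbols, and 86 and 71 by DESeq2. With a library left out they ran from 71 (without MUT 1) to 115 (without WT 1) higher and from 43 (without WT 2) to 165 (without WT 1) lower, with 89 lower without MUT 2. The cause was not tested. The beta subunit shares kept their direction with merged exon lengths, with no division by length and without each library.

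The replicate numbers were not taken as pairs, since no label says so. The deviations of same-numbered libraries correlated at -0.13 across 15364 genes. A replicate block gave 57 higher and 31 lower genes and called no subunit. Crossed pairs, chosen after seeing the data, gave 131 and 104. At these depths Atp1b1, with 942 to 1326 reads, was the subunit with the fewest reads and the largest standard error.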
